A study of Homo sapiens with 9 samples.

Results

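The cluster of miR-143 and miR-145 comprises 2 microRNA hairpins on human chromosome 5, MIR143 and MIR145, each of which gives rise to a 5p and a 3p mature miRNA. The 4 named members, miR-143-3p, miR-143-5p, miR-145-5p and miR-145-3p, were looked up by name among the 1198 mature miRNAs of the count table. Counts were found for 3 of the 4, namely miR-143-3p, miR-145-5p and miR-145-3p, and all 3 were among the 367 miRNAs abundant enough to be tested. miR-143-5p was not analysed here. Small RNA was sequenced from HCT116, an established colorectal carcinoma epithelial cell line, and from a pair of drug-resistant sublines derived from it. HCT_Oxa (also HCT-Oxa-c) had been selected for resistance to oxaliplatin, a platinum compound that crosslinks DNA, and HCT_FU (also HCT-FU-c) for resistance to 5-fluorouracil, an antimetabolite that blocks thymidylate synthesis. Both were selected under continuous exposure to increasing drug concentrations, whereas HCT116 was the parental line without selection, and all lines were kept in the same medium with serum. Each line gave 3 biological replicates, so that 9 libraries were compared. Each resistance is represented by a single subline, and the p-values therefore measure the spread between cultures of these lines and not between independently selected sublines.

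The hairpins of this cluster are cut from 1 long noncoding host transcript, CARMN (also named MIR143HG). miR-143 and miR-145 are best known as abundant miRNAs of smooth muscle cells and fibroblasts, and they are low in most cells of epithelial origin, including colorectal carcinoma cells. In colorectal cancer cells the tumour suppressor p53 is known to promote the processing of the primary transcripts of miR-143 and miR-145 by Drosha.

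The mature sequences are shown because the arms of this cluster do not share a seed, so that each arm recognises its own set of targets. Sequences were taken from RefSeq (GRCh38.p14), are written 5′ to 3′, and carry the seed (bases 2 to 8) in capitals.
hsa-miR-143-3p: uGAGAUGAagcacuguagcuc
hsa-miR-143-5p: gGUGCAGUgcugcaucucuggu
hsa-miR-145-5p: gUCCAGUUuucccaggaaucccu
hsa-miR-145-3p: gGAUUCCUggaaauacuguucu

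The 4 seeds differed from each other. Among 2370 human mature miRNAs of the reference, 2 others carried the seed of miR-143-3p, and neither was analysed here. No other mature miRNA of the reference carried the seed of miR-143-5p, miR-145-5p or miR-145-3p. The mature lengths were 21 bases for miR-143-3p, 22 for miR-143-5p, 23 for miR-145-5p and 22 for miR-145-3p, and their GC contents were 47.6%, 59.1%, 52.2% and 40.9%, respectively. The hairpins are written with their mature arms in capitals, the 5p arm first, to place the measured arms within each precursor.
MIR143: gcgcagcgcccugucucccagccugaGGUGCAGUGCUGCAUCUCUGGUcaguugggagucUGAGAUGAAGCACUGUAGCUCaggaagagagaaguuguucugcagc
MIR145: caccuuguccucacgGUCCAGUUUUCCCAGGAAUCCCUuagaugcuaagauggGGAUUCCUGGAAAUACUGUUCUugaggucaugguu

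MIR143 lies at chr5:149428918-149429023 and MIR145 at chr5:149430646-149430733, both on the plus strand and 1622 bases apart. In GENCODE 29, which gave the same coordinates, both fall within the lincRNA gene CARMN (chr5:149406689-149432835, plus strand, 12 transcripts). In the CARMN-209 transcript, which has 5 exons, MIR143 is exonic (exon 4, chr5:149428883-149429039) and MIR145 lies in intron 4.

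The depth of the libraries and the position of replicate 3 bear on every value of the cluster. Total counts ranged from 856383 to 2207538 per library, replicate 3 was the shallowest library of each line, and the most abundant miRNA, miR-21-5p, took 40.0% to 57.1% of a library. A limit of 3 counts corresponded to 1.34 to 4.01 CPM (counts scaled to the TMM library size), below all values of the 3 members. The replicate 3 libraries stood apart from replicates 1 and 2 in all 3 lines. Of the 367 tested miRNAs, 132 (36.0%) were higher and 119 (32.4%) lower in replicate 3 than the mean of replicates 1 and 2 in every line.

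miR-143-3p, the arm of MIR143 that usually predominates, was the most abundant measured arm of the cluster by mean level in every line. In both sublines this order rested on replicate 3. Over replicates 1 and 2 alone, miR-145-5p had the higher mean in HCT_Oxa (158.6 against 97.5 CPM) and HCT_FU (106.6 against 84.1 CPM). In HCT116 miR-143-3p stayed higher (186.5 against 142.5 CPM). The counts of miR-143-3p in HCT116 were 261, 274 and 420 in replicates 1, 2 and 3, which corresponded to 177, 196 and 561 CPM. In HCT_Oxa the counts were 120, 295 and 304, or 62.9, 132 and 312 CPM. In HCT_FU they were 80, 205 and 330, or 60.5, 108 and 393 CPM. Replicate 3 was by far the highest library of each line, and the ranges of both sublines overlapped that of HCT116. Within each replicate number, however, both sublines lay below HCT116. The mean levels were 311 ± 217 CPM in HCT116, 169 ± 129 CPM in HCT_Oxa and 187 ± 180 CPM in HCT_FU (SD, n = 3), which ranked miR-143-3p 94th, 114th and 114th by mean level among the 1198 miRNAs of the respective line. In RNA from whole cultures, fewer cells that express a miRNA and less of it per cell cannot be told apart.

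miR-145-5p, the usual guide strand of MIR145, was less variable between replicates. Its counts of 203, 206 and 85 in HCT116 corresponded to 138, 147 and 114 CPM. In HCT_Oxa 285, 375 and 84 counts gave 149, 168 and 86.2 CPM. In HCT_FU 154, 184 and 54 counts gave 116, 96.7 and 64.4 CPM. Here replicate 3 was the lowest library of each line, the opposite of miR-143-3p, and the ranges of the lines overlapped. The means were 133 ± 17.3 CPM in HCT116, 134 ± 42.8 CPM in HCT_Oxa and 92.5 ± 26.3 CPM in HCT_FU (SD, n = 3). These means ranked 130th in HCT116 and 127th in HCT_Oxa among the 1198 miRNAs.

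miR-145-3p, the less abundant strand of MIR145, rested on few reads, with 16 to 57 counts per library. HCT116 had 32, 19 and 29 counts, or 21.7, 13.6 and 38.8 CPM. HCT_Oxa had 50, 57 and 29 counts, or 26.2, 25.5 and 29.8 CPM. HCT_FU had 21, 16 and 25 counts, or 15.9, 8.41 and 29.8 CPM. The 3 lines overlapped, and HCT_Oxa showed the narrowest range. The means of 24.7 ± 12.8, 27.2 ± 2.29 and 18.0 ± 10.9 CPM (SD, n = 3, for HCT116, HCT_Oxa and HCT_FU) ranked 230th, 227th and 251st of 1198. Summed over the 3 measured arms, the cluster reached 469 ± 212 CPM in HCT116, 331 ± 94.8 CPM in HCT_Oxa and 298 ± 165 CPM in HCT_FU (SD, n = 3).

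**Figure D1:**
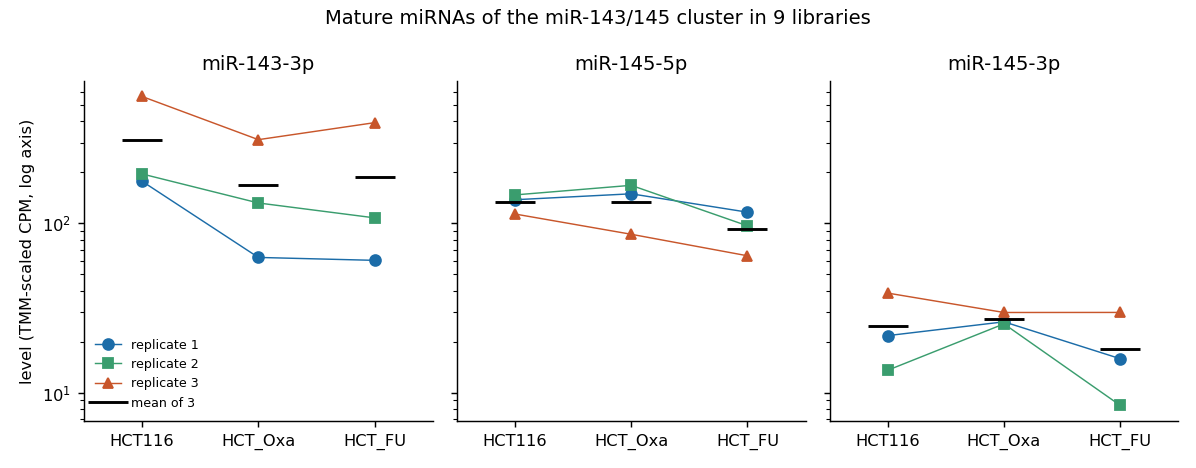
Level of each measured arm (TMM-scaled CPM, log axis) in HCT116, HCT_Oxa and HCT_FU, with points for single libraries, thin lines joining libraries of the same replicate number and black bars for the mean of 3. Replicate 3 was the highest library of every line for miR-143-3p and the lowest for miR-145-5p, and in each replicate number miR-143-3p was lower in both sublines than in HCT116.

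To examine whether oxaliplatin or 5-fluorouracil resistance went along with a change of the cluster, each subline was compared with HCT116 by edgeR's quasi-likelihood test across all 367 miRNAs, first with the line as the single factor. Since both comparisons use the same HCT116 libraries, they are not independent of each other. None of the 3 arms was called in any comparison at an adjusted p below 0.05. In this model 2.45% of the tested miRNAs were called for HCT_Oxa against HCT116, 0% for HCT_FU against HCT116 and 4.36% for HCT_Oxa against HCT_FU. The 0 calls for HCT_FU stood against 15 miRNAs with an unadjusted p below 0.05, and DESeq2 called 4. None of the arms separated the lines without overlap in any comparison, as 16.1%, 8.72% and 22.9% of the tested miRNAs did in the same order of comparisons.

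For miR-143-3p the line model gave a log2 fold change of -0.88 in HCT_Oxa (95% interval -2.70 to 0.94, edgeR adjusted p = 0.875) and of -0.74 in HCT_FU (-2.56 to 1.08, edgeR adjusted p = 0.997). The spread between replicates of 1 line (SD) was 69.5% to 96.2% of the mean of that line. The replicate 3 libraries moved together around the means of their lines, with correlations of 0.74 to 0.76. Numbers 1 and 2 were not clearly set apart from each other. Their correlations were 0.41 to 0.51 within number 1, 0.56 to 0.65 within number 2 and 0.42 to 0.61 between them. The replicate number was then added to the model as a block. miR-143-3p was then lower in HCT_Oxa by a log2 fold change of -0.97 (SE 0.20, 95% interval -1.39 to -0.54, edgeR adjusted p = 0.00172), or 0.512-fold. In HCT_FU it was lower by -0.96 (SE 0.21, interval -1.38 to -0.53, edgeR adjusted p = 0.0113), or 0.515-fold. With the block 14.7% of the tested miRNAs were called in HCT_Oxa (5.18% as lower) and 5.45% in HCT_FU (3.81% as lower). By its p in this model miR-143-3p ranked 21st of 367 in HCT_Oxa and 4th of 367 in HCT_FU.

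Set against the HCT116 library of the same number, miR-143-3p in HCT_Oxa stood at 0.355, 0.674 and 0.556 of its level in replicates 1, 2 and 3. In HCT_FU the ratios were 0.341, 0.550 and 0.701. The direction was thus the same in 3 of 3 numbers for both sublines, which held for 23.7% and 19.1% of all tested miRNAs, respectively. The sublines themselves were close to each other, with a log2 difference of -0.01 between HCT_Oxa and HCT_FU in the block model (95% interval -0.44 to 0.42, edgeR adjusted p = 0.983). Both calls were sensitive to single libraries. The call for HCT_Oxa was lost without its replicate 1 (log2 fold change -0.80, edgeR adjusted p = 0.130), and the call for HCT_FU was lost without HCT116 replicate 1 (-0.69, edgeR adjusted p = 0.0596) and without HCT_Oxa replicate 1 (-0.97, edgeR adjusted p = 0.108). Scaling to total counts in place of TMM also ended the call for HCT_FU (-0.80, edgeR adjusted p = 0.0501). Without the 3 replicate 3 libraries both calls held in the block model, where miR-143-3p fell by 1.00 on the log2 scale in HCT_Oxa (edgeR adjusted p = 0.00778) and by 1.27 in HCT_FU (edgeR adjusted p = 0.00239). In the line model the same libraries gave -0.90 in HCT_Oxa (edgeR adjusted p = 0.112) and -1.18 in HCT_FU (edgeR adjusted p = 0.0659). Neither was called there.

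For miR-145-5p no difference between HCT_Oxa and HCT116 was detected. The log2 fold change was 0.02 (95% interval -0.71 to 0.75, edgeR adjusted p = 1.00) in the line model and -0.01 (-0.42 to 0.41, edgeR adjusted p = 0.987) with the block, and the ratios to the HCT116 library of the same number were 1.08, 1.14 and 0.759. In HCT_FU the level of miR-145-5p was 0.844, 0.657 and 0.567 of that in HCT116 of the same number. This difference did not pass the test, with -0.52 in the line model (interval -1.25 to 0.21, edgeR adjusted p = 0.968) and -0.54 with the block (interval -0.97 to -0.11, edgeR adjusted p = 0.131). Between the sublines, miR-145-5p had 1.28, 1.73 and 1.34 times the level in HCT_Oxa compared with HCT_FU in replicates 1, 2 and 3. It was higher in 3 of 3 numbers, as were 23.7% of all tested miRNAs. The log2 difference was 0.54 in the line model (interval -0.19 to 1.27, edgeR adjusted p = 0.512) and 0.53 with the block (interval 0.11 to 0.96, edgeR adjusted p = 0.0561), in a comparison in which the block model called 26.4% of all tested miRNAs. The difference passed the threshold in the block model with RLE size factors (0.61, edgeR adjusted p = 0.0295) and not with total counts (0.35, edgeR adjusted p = 0.239).

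miR-145-3p did not pass the test with all 9 libraries in any comparison either. In HCT_Oxa the block model gave a log2 fold change of 0.30 (95% interval -0.44 to 1.04, edgeR adjusted p = 0.699). In HCT_FU it gave -0.49 (interval -1.28 to 0.30, edgeR adjusted p = 0.544), with ratios of 0.730, 0.619 and 0.769 to the HCT116 library of the same number. Between HCT_Oxa and HCT_FU it gave 0.79 (interval 0.03 to 1.55, edgeR adjusted p = 0.123). At this depth, these intervals leave room for changes of more than 2-fold in HCT_Oxa and HCT_FU alike.

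**Figure D2:**
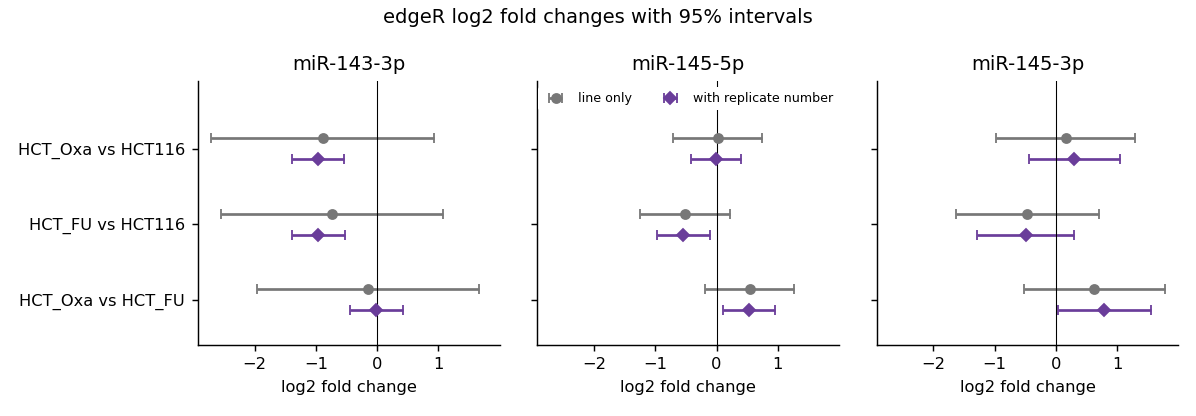
Log2 fold changes of the 3 arms in the 3 comparisons from edgeR, with the line as the single factor (grey circles) and with the replicate number added (purple diamonds), and 95% intervals as bars. With the replicate number, the interval of miR-143-3p lay below 0 in both sublines (-1.39 to -0.54 and -1.38 to -0.53), whereas the interval of miR-145-5p in HCT_Oxa was -0.42 to 0.41.

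The 2 arms of MIR145 come from the same hairpin, and their proportion describes which strand of the duplex is retained. miR-145-5p made up 86.4%, 91.6% and 74.6% of the reads of both arms in HCT116. In HCT_Oxa its share was 85.1%, 86.8% and 74.3%, and in HCT_FU it was 88%, 92% and 68.4%. The 5p arm thus prevailed in all 9 libraries, and replicate 3 had the lowest share in each line. The 95% Wilson intervals, which cover counting error only, were 65.9% to 81.7% in replicate 3 of HCT116, 65.6% to 81.5% in that of HCT_Oxa and 57.5% to 77.6% in that of HCT_FU. The mean shares of 84.2% ± 8.71, 82.1% ± 6.76 and 82.8% ± 12.7 (SD, n = 3) in HCT116, HCT_Oxa and HCT_FU did not differ beyond the spread between replicates. The two-sided exact permutation test gave p = 0.7 for HCT_Oxa, 0.9 for HCT_FU and 0.9 between the sublines, where the smallest p that 3 against 3 libraries allow is 0.1. It ignores the replicate number, and no test within numbers was made. Within each number the share was lower in HCT_Oxa than in HCT116, while for HCT_FU the direction varied between numbers.

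The balance of the hairpins was followed as the share of miR-143-3p among the reads of the 3 measured arms. Different sequences can be ligated with different efficiency, so the share was compared between libraries and not read as a ratio of molecules. It was 52.6%, 54.9% and 78.7% in HCT116. In HCT_Oxa it was 26.4%, 40.6% and 72.9%, and in HCT_FU 31.4%, 50.6% and 80.7%. In replicate 1 the interval of HCT116 (48.2% to 57.0%) lay above those of HCT_Oxa (22.5% to 30.6%) and HCT_FU (26.0% to 37.3%). In replicate 2 that of HCT116 (50.5% to 59.2%) lay above that of HCT_Oxa (37.1% to 44.2%) and overlapped that of HCT_FU (45.8% to 55.5%). In replicate 3 that of HCT116 (75.0% to 81.9%) overlapped those of HCT_Oxa (68.4% to 76.9%) and HCT_FU (76.6% to 84.2%). These intervals cover counting error only, not the spread between cultures of a line. The mean shares were 62.1% ± 14.4 in HCT116, 46.6% ± 23.8 in HCT_Oxa and 54.2% ± 24.9 in HCT_FU (SD, n = 3). The mean shares differed from HCT116 by -15.4 percentage points in HCT_Oxa and -7.84 in HCT_FU, and by -7.61 between the sublines. The difference of HCT_Oxa from HCT116 exceeded the SD of HCT116 but not that of HCT_Oxa. The other differences were smaller than the SDs of both lines compared. The two-sided exact permutation test gave p = 0.4, 0.7 and 0.7. This test does not take the replicate number into account, and a test of the difference between the arms within numbers was not made.

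Within the same replicate number the log2 ratio of miR-143-3p to miR-145-5p changed by -1.61, -0.76 and -0.45 from HCT116 to HCT_Oxa in replicates 1, 2 and 3. From HCT116 to HCT_FU it changed by -1.31, -0.26 and 0.31. The ratio was lower in every number for HCT_Oxa and in 2 of 3 numbers for HCT_FU.

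In replicate 3 against the mean of replicates 1 and 2, miR-143-3p and miR-145-5p moved in opposite directions. miR-143-3p in replicate 3 was 3.00, 3.19 and 4.65 times the mean of replicates 1 and 2 in HCT116, HCT_Oxa and HCT_FU. miR-145-5p was 0.798, 0.545 and 0.606 times that mean, and miR-145-3p was 2.16, 1.15 and 2.40 times. On the log2 scale, averaged over the lines, these ratios were 1.83 for miR-143-3p, -0.64 for miR-145-5p and 0.86 for miR-145-3p, at the 94.3, 28.3 and 79.8 percentile of the 367 tested miRNAs. The 2 strands of 1 hairpin, MIR145, therefore stood on opposite sides of replicates 1 and 2. For miR-145-3p in HCT_Oxa the difference was small (1.15 times, with 29 counts in replicate 3).

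Marker miRNAs of other cell types were set beside these values. miRNAs of colon epithelium (8 of 9 matched by name) summed to between 19533 and 26051 CPM in every library, led by miR-200c-3p, the epithelial miRNA that represses ZEB1 and ZEB2, with a mean of 10103 CPM. The marker left out, miR-375, was in the table as miR-375-3p, with a mean of 487 CPM. Its log2 ratio of replicate 3 to replicates 1 and 2 averaged 1.48 over the lines. The median of that ratio over the tested list members was -0.46, -0.31 and -0.38 in HCT116, HCT_Oxa and HCT_FU. Markers of fibroblasts and smooth muscle other than the cluster itself (5 of 6 listed) summed to 34.8 to 66.5 CPM in HCT116, 32.9 to 64.0 CPM in HCT_Oxa and 28.6 to 109 CPM in HCT_FU, led by miR-199b-5p with a mean of 25.6 CPM. Replicate 3 had the lowest sum of each line, 34.8, 32.9 and 28.6 CPM, while miR-143-3p was highest there. Of the 5, miR-199b-5p had 9 to 85 counts per library, miR-199a-3p 6 to 81 and miR-199b-3p 3 to 41, while miR-199a-5p had 0 to 2 and miR-214-3p 0 to 1. Their part in the level of the cluster was not tested.

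miRNAs of blood cells (9 of 9 listed) summed to 19.0, 28.6 and 402 CPM in replicates 1, 2 and 3 of HCT116, to 10.5, 22.4 and 585 CPM in HCT_Oxa and to 42.3, 38.4 and 290 CPM in HCT_FU. They were led by miR-486-5p, with a mean of 99.7 CPM. The erythroid miR-451a had 86, 246 and 70 counts in the replicate 3 libraries of HCT116, HCT_Oxa and HCT_FU against 0 to 2 counts in all other libraries. Most of the replicate 3 sums came from these miRNAs, with miR-486-5p at 270, 310 and 199 CPM and miR-451a at 115, 253 and 83.4 CPM. Each other listed blood miRNA had at most 13 counts in a library and was not tested. The liver miRNA miR-122-5p had 45, 45 and 20 counts in replicate 3 and 0 to 7 in the others. Like miR-143-3p, miR-486-5p, miR-451a and miR-122-5p were thus highest in replicate 3 of each line, and their part in the level of miR-143-3p was not tested. From replicate 1 to 2 of HCT_FU, miR-143-3p rose from 60.5 to 108 CPM while the blood sum went from 42.3 to 38.4 CPM. In HCT116 and HCT_Oxa both rose from replicate 1 to 2. Between the replicate 3 libraries of HCT116, HCT_Oxa and HCT_FU, miR-143-3p measured 561, 312 and 393 CPM, the blood sum 402, 585 and 290 CPM, and miR-122-5p 60.1, 46.2 and 23.8 CPM. In HCT_FU all 3 were lower than in HCT116, and in HCT_Oxa the blood sum was higher while miR-143-3p and miR-122-5p were lower. The endothelial list (2 of 2 listed), led by miR-126-3p with a mean of 746 CPM, summed to 512 to 1091 CPM, and the striated muscle list (2 of 7 listed) was led by miR-499a-5p with 17.4 CPM. No marker in the lists as matched by name was called against HCT116 in either subline, with or without the block. Of all tested miRNAs, 2.45% in HCT_Oxa and 0% in HCT_FU were called without it, and 14.7% and 5.45% with it. Between the sublines the block model called 1 marker each of the colon epithelium, blood and endothelial lists, and 26.4% of all tested miRNAs.

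Other miRNAs linked to p53 were compared because p53 acts on the processing of this cluster. Of 8 listed strands, 6 were in the table and 2 were tested. miR-16-5p, whose MIR16-1 precursor is processed with the help of p53 as that of miR-143 is, was the most abundant with a mean of 6181 CPM and was not called in either subline (block log2 fold change -0.14 in HCT_Oxa and -0.15 in HCT_FU). miR-16-1-3p, the passenger strand that is specific to MIR16-1, had 1 to 5 counts and was not tested. miR-34a-5p, a direct transcriptional target of p53, had 127, 127 and 178 CPM in HCT116, 103, 119 and 140 CPM in HCT_Oxa and 225, 196 and 291 CPM in HCT_FU, so that all HCT_FU libraries lay above all HCT116 libraries. Between HCT_FU and HCT116, 8.72% of all tested miRNAs did not overlap, in either direction, and 5.45% were called with the block. With the block miR-34a-5p was higher in HCT_FU by 0.72 on the log2 scale (edgeR adjusted p = 0.0230), where miR-143-3p was lower, and not called in HCT_Oxa (-0.25, edgeR adjusted p = 0.454). Without the block it was not called in HCT_FU either (edgeR adjusted p = 0.901). The median log2 fold change of the 2 tested strands with the block was -0.19 in HCT_Oxa and 0.29 in HCT_FU, compared with -0.01 and 0.02 over all tested miRNAs. A median of 2 values is their midpoint. In HCT_FU it lies between opposite directions, -0.15 for miR-16-5p and 0.72 for miR-34a-5p, and does not describe a shift of the list.

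The neighbouring miRNA genes within 2 Mb on either side were not called as changed. MIR584, on the minus strand in an intron of SH3TC2 (chr5:149062313-149062409), lies 366509 bases from the cluster, and its miR-584-5p measured 566 ± 268, 597 ± 238 and 500 ± 230 CPM in HCT116, HCT_Oxa and HCT_FU (SD, n = 3). MIR378A, on the plus strand in intron 1 of PPARGC1B (chr5:149732825-149732890), lies 302092 bases away, and its miR-378a-3p measured 1073 ± 165, 1042 ± 195 and 1261 ± 173 CPM (SD, n = 3). The less abundant miR-378a-5p had 7 to 43 counts, and miR-584-3p had 0 to 8 counts and was not tested. None of the 3 tested neighbours was called in any of the 3 comparisons in either model. Over all tested miRNAs the shares called were 2.45%, 0% and 4.36% in the line model and 14.7%, 5.45% and 26.4% with the block. At these shares few or no calls would be found among 3 miRNAs, so their absence does not set the neighbours apart. For miR-584-5p the block log2 fold change was 0.11 in HCT_Oxa and -0.17 in HCT_FU, against -0.97 and -0.96 for miR-143-3p.

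The arms share a host transcript, and their levels were set against each other across the 9 libraries. The correlation of log2 CPM was -0.48 between miR-143-3p and miR-145-5p (Spearman -0.48), 0.55 between miR-143-3p and miR-145-3p (Spearman 0.65) and -0.11 between both arms of MIR145 (Spearman -0.30), as a description over 9 libraries that share lines and replicate numbers. Of the other 366 tested miRNAs, those most like miR-143-3p were miR-576-3p (Pearson 0.88, Spearman 0.85), miR-4433b-5p (0.88, 0.89) and miR-375-3p (0.88, 0.90). Like miR-143-3p, they were higher in replicate 3, with mean log2 ratios to replicates 1 and 2 of 1.04, 4.35 and 1.48. miR-4433b-5p had a mean of only 4.23 CPM. The most like miR-145-5p were miR-100-3p (Pearson 0.87, Spearman 0.92), miR-21-3p (0.84, 0.77) and miR-425-5p (0.82, 0.77). The most like miR-145-3p were miR-181d-5p (Pearson 0.95, Spearman 0.93), miR-200b-5p (0.93, 0.95) and miR-374a-3p (0.92, 0.93). Their replicate 3 ratios also had the sign of the arm, at -1.21, -0.74 and -1.79 for miR-145-5p and 1.12, 0.64 and 0.85 for miR-145-3p. How far the position of replicate 3 makes up these correlations was not tested.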

How the data were processed

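Small RNA libraries of 9 cultures were prepared from total RNA with the NEXTflex Small RNA-Seq v3 kit. The authors deposited the counts of reads for every mature miRNA, not normalized, together with a normalized signal (counts divided by a library factor), which was not used here. The submitters' processing notes name CASAVA 1.8, Bowtie 1.1.2, DESeq2 and the genome build GRCh38.p7, and the counting tool is not given in the sources used here. Columns were matched to samples by name, and 0 were left unmatched.

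Counts were tested with edgeR 4.0.16 (R 4.3.3; quasi-likelihood F test, TMM, line as factor, all 9 libraries, Benjamini-Hochberg adjustment, threshold 0.05). filterByExpr (minimum count 10, minimum total 15) kept 367 of 1198 miRNAs. A prior count of 0.125 entered the fold changes and of 2 the correlations, and the replicate 3 ratios used a pseudocount of 0.5 CPM. The biological coefficient of variation was 0.458, and 0.174 with the replicate number as a block. The numbers are those of the labels, where no batch or date is named. Deviations from the line means correlated at 0.41 to 0.51 (replicate 1), 0.56 to 0.65 (replicate 2) and 0.74 to 0.76 (replicate 3) between libraries of the same number, all over 0.1, and at -0.68 to 0.61 between different numbers, with replicates 1 and 2 at 0.42 to 0.61. Replicate libraries of 1 line differed beyond sampling noise (chi-square per degree of freedom 9.71 to 385). Scripts were tested on simulated counts.

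Named are the members, miRNAs sharing their seed, the 3 most correlated miRNAs of each arm, neighbours within 2 Mb, and from each list (colon epithelium, fibroblast and smooth muscle, striated muscle, blood, endothelium, hepatocyte, p53) the most abundant miRNA and those called where a member was called. The other fibroblast and smooth muscle miRNAs, miR-451a, miR-16-1-3p and, as a marker, miR-375-3p were added after their values were seen. Members and lists were chosen with earlier results of these data known. The planned share of MIR143 arms needs miR-143-5p and was not computed, and the hairpin share uses 3 arms. RefSeq held a mature sequence for 1059 of the 1198 names. Figures and shares were made with Python 3.11.15 and scipy 1.17.1, and DESeq2 1.42.0 served as alternative. Alternatives covered normalization, filter, tool, replicate block and libraries left out.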

Additional observations from a re-analysis of the deposited data

How the results depend on the processing

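The replicate block, the pairing by replicate number, decided the calls of miR-143-3p, which moved to -0.97 in HCT_Oxa and -0.96 in HCT_FU (log2 fold change against HCT116, called with the block only). It called 54, 20 and 97 miRNAs for HCT_Oxa against HCT116, HCT_FU against HCT116 and HCT_Oxa against HCT_FU, compared with 9, 0 and 16 without it. DESeq2 called 23, 4 and 43, replicates 1 and 2 alone gave 43, 13 and 67, and no filter gave 16 and 1 against HCT116. The sign turned for miR-145-5p in HCT_Oxa with the block (-0.0068), for miR-143-3p between the sublines in replicates 1 and 2 alone (0.28), and for the share of miR-145-5p in HCT_FU with reads pooled (0.28 percentage points). The cause was not tested.

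Further settings of the block model were chosen after seeing the data. miR-143-3p in HCT_Oxa was called at -0.94 with RLE size factors, -0.98 with total counts, and -0.92 with TMM without miR-21-5p, and it fell by 1.00 in replicates 1 and 2. In HCT_FU it was called at -1.01, -0.99 and -1.27 with RLE, without miR-21-5p and in replicates 1 and 2, and not with total counts (-0.80). Between the sublines miR-143-3p turned to 0.067, 0.072 and 0.26 under RLE, without miR-21-5p and in replicates 1 and 2, miR-145-5p was called at 0.61, 0.62 and 0.65 under the same settings, and miR-145-3p at 1.23 in replicates 1 and 2. miR-145-5p in HCT_Oxa stayed below 0 with total counts (-0.020). It turned to 0.014, 0.047 and 0.18 under RLE, without miR-21-5p and in replicates 1 and 2.

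With each library left out in turn, without the block and with it, log2 fold changes of miR-143-3p ranged from -1.59 to -0.18 and -1.13 to -0.65 in HCT_Oxa, from -1.90 to -0.0015 and -1.26 to -0.69 in HCT_FU, and from -0.86 to 1.06 and -0.18 to 0.36 between the sublines. Those of miR-145-5p ranged from -0.14 to 0.32 and -0.11 to 0.17, from -0.75 to -0.36 and -0.70 to -0.39, and from 0.37 to 0.84 and 0.41 to 0.72. Those of miR-145-3p ranged from -0.079 to 0.59 and -0.041 to 0.69, from -1.05 to -0.016 and -0.82 to -0.24, and from 0.24 to 1.28 and 0.44 to 1.18. Calls without the block ranged from 4 to 12, 0 to 0 and 6 to 23. With the block, miR-143-3p was called in 8 of 9 such fits in HCT_Oxa and 7 of 9 in HCT_FU, and between the sublines miR-145-5p was called in 4 of 9 (without HCT116 replicate 1, HCT116 replicate 2, HCT_Oxa replicate 3 or HCT_FU replicate 1, the lowest edgeR adjusted p being 0.0285) and miR-145-3p in 1 of 9 (without HCT_Oxa replicate 3, edgeR adjusted p = 0.0379). In the same order, differences in the share of miR-145-5p ranged from -6.90 to 1.77, -6.18 to 5.83 and -7.93 to 3.89 percentage points, and in that of miR-143-3p from -28.6 to -5.32, -21.1 to 3.59 and -20.7 to 5.62.

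Depth limits miR-145-3p most, with 16 to 57 counts per library.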
